A study of Macaca mulatta with 27 samples.

Results

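Wnt ligands, their receptors and their secreted modulators were followed in rhesus macaque pluripotent stem cells (PSCs) before and after culture with 7 protocols meant to bring them to a naive state. The members were all gene symbols of the count tables that name a WNT, FZD, SFRP or RSPO gene, DKK2, DKK3, DKK4, LRP5, LRP6, ROR1, ROR2, RYK, PORCN, WLS, FRZB or WIF1. The rule used names and no measured value. It found 49 of 17967 symbols, which comprised 19 ligands, 2 genes of ligand secretion, 10 Frizzled receptors, 2 LRP co-receptors, 3 receptors of the ROR and RYK type, 4 R-spondins, 6 soluble Wnt binders and 3 DKK genes. Bulk RNA-seq was available for 6 libraries of primed cells and 3 libraries of cells from each protocol, namely TL2i and TL-CDK8i, 4i/L/b, LCDM (EPS), t2iLGöY, NHSM-v and E-NHSM. All groups came from 1 clone, LyonES-tGFP-(S3), derived from the LyonES line of rhesus embryonic stem cells. Each group, the primed cells included, therefore carried a tauGFP transgene driven by the ubiquitous CAG promoter and a lentiviral STAT3-ERT2, a form of STAT3 that tamoxifen activates. TL2i cells received tamoxifen, LIF and inhibitors of MEK and GSK3β. In TL-CDK8i cells, CNIO-47799, an inhibitor of CDK8 and CDK19, took the place of the MEK and GSK3β inhibitors. The remaining 5 protocols were used without tamoxifen, so that STAT3-ERT2 was not activated in those cells, and their media are otherwise named without their components in the sources used here.

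Wnt ligands are lipid-modified by PORCN, carried to the cell surface by WLS, and bind Frizzled receptors together with LRP5 or LRP6, which leads to stabilization of β-catenin. GSK3β marks β-catenin for destruction, so that a GSK3β inhibitor acts on the pathway below the receptors. R-spondins strengthen the response by sparing Frizzled receptors from removal, SFRP proteins, FRZB and WIF1 bind ligands outside the cell, and ROR1, ROR2 and RYK serve Wnt signals that mostly do not pass through β-catenin, such as those of WNT5A. In the embryo, WNT1, WNT3A and R-spondins are known from the dorsal neural tube.

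Library totals ran from 7111886 to 20760914 counts, so that 3 counts in a library corresponded to 0.141 to 0.429 CPM (counts scaled to library size, computed with TMM factors over the 27 libraries). Within groups, log2 CPM of library pairs correlated over genes at 0.923 to 0.992. The labels call the cells of all 7 protocols naive, but POU5F1, which encodes OCT4, had a mean of 1182 CPM in primed, 1365 CPM in E-NHSM and 502 CPM in TL-CDK8i cells against 0.290 to 6.44 CPM in the other 5 protocols, and NANOG was at 0 in every NHSM-v and t2iLGöY library. Of 8 pluripotency genes, 8 were lower than in primed cells with 5 protocols and 7 in LCDM (EPS) cells, while in E-NHSM cells 4 were higher and 2 lower. Markers of other cell types moved as well. The summed CPM of 8 neural genes was 21.8 to 38.6 in primed and 18.8 to 29.1 in E-NHSM libraries, 153 to 195 in TL-CDK8i, 213 to 231 in TL2i, 297 to 334 in 4i/L/b, 527 to 603 in NHSM-v, 1841 to 2020 in t2iLGöY and 2368 to 2553 in LCDM (EPS) libraries. For 6 genes of roof plate and neural crest the sum was 19.2 to 50.4 in primed, 5.38 to 7.49 in E-NHSM, 65.6 to 92.8 in TL-CDK8i, 227 to 508 in TL2i, 4i/L/b and NHSM-v, 489 to 519 in LCDM (EPS) and 825 to 1008 in t2iLGöY libraries, with LMX1A at 0 in E-NHSM. These 6 genes did not move together, and 1 of them was called lower than in primed cells in every protocol but TL2i. FOXD3 held 17.5 to 41.1 CPM in primed, 0.113 to 1.41 in NHSM-v and 0 to 0.866 in LCDM (EPS) libraries. Most of the NHSM-v sum was PAX3, at 172 to 198 CPM. For 8 fibroblast genes it was 1077 to 2345 in primed, 441 to 483 in E-NHSM, 775 to 1013 in LCDM (EPS), 2949 to 5746 in TL2i and t2iLGöY, and 7650 to 15050 in TL-CDK8i, 4i/L/b and NHSM-v libraries, with LUM and DCN at 0 in primed, E-NHSM and t2iLGöY cells. Most of the fibroblast sum was COL1A1 in t2iLGöY and NHSM-v libraries, at 2933 to 3469 and 6152 to 6706 CPM. COL1A2 stood at 263 to 344 CPM in t2iLGöY against 340 to 545 CPM in primed libraries. Of the 8 fibroblast genes, 3 were called higher and 1 lower in t2iLGöY, and 2 higher and 3 lower in LCDM (EPS) cells. Sums of 5 mesoderm, 4 endoderm and 4 trophoblast genes reached at most 29.96, 76.4 and 230.0 CPM in any library. These sums differed between the groups compared below, each in its own order, and their part in each Wnt result was not tested. In bulk RNA, fewer cells of a type and less RNA per cell cannot be told apart. The labels do not say that libraries of a group came from separate cultures, so p-values measure the spread between these libraries, which may be technical.

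More of the family was detected in 6 of the 7 protocols than in primed cells. A mean of at least 1 CPM was reached by 28 members in primed and 28 in E-NHSM cells, and by 38 in NHSM-v, 38 in 4i/L/b, 38 in LCDM (EPS), 40 in t2iLGöY, 41 in TL2i and 44 in TL-CDK8i cells. Of the 19 ligands, 6 reached it in primed and 5 in E-NHSM cells, against 11 to 16 in the other 6 protocols. How many of all genes reached 1 CPM in each group was not counted, so these numbers describe the members only. No member stayed at 3 counts or fewer in all 27 libraries, while 13 stayed under a group mean of 10 CPM everywhere.

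**Figure D1:**
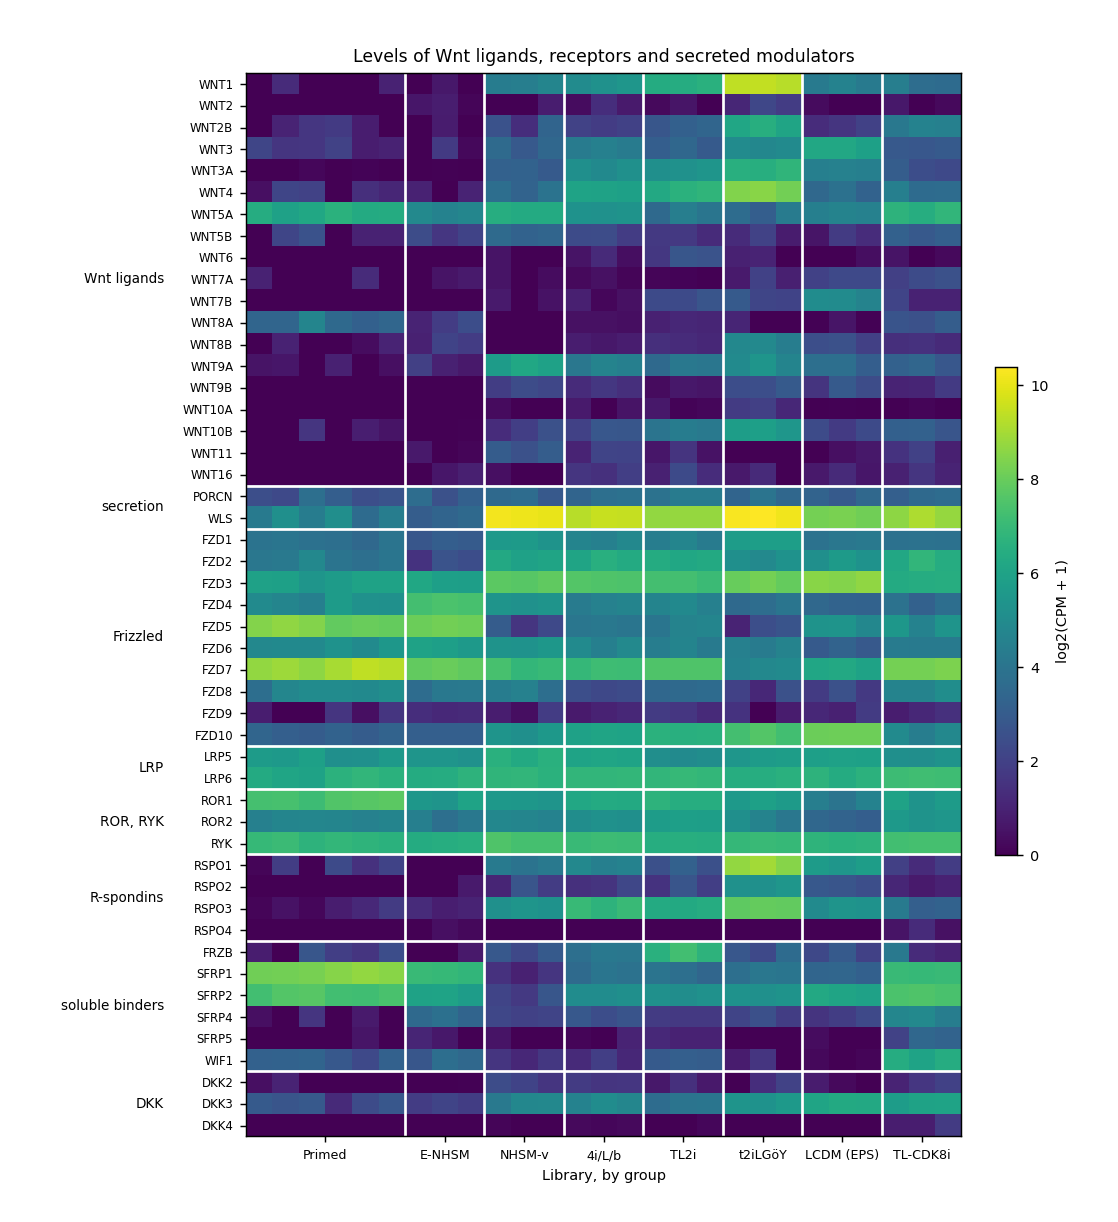
Heat map of log2(CPM + 1) for the 49 members (rows, by role) in each of the 27 libraries (columns, by group). Most ligand and R-spondin rows are dark in primed and E-NHSM libraries, where 6 and 5 of the 19 ligands reached a mean of 1 CPM, and lighter in the other protocols. Exceptions are WNT5A and WNT8A, at 61.3 to 98.7 and 8.22 to 25.4 CPM in primed libraries.

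Each protocol was set against the same 6 primed libraries with the quasi-likelihood test of edgeR, and members are counted at an adjusted p under 0.05, beside the share of all genes tested that was called in the same direction. The 7 comparisons share these primed libraries and are not independent. The primed libraries were treated as 1 group, although their columns carry the letters J and K and the sample titles divide them into separate sets. In E-NHSM cells, 3 of the 49 members were higher (11.1% of all genes) and 12 lower (15.1%), with 33 members tested and 26.2% of all genes called. NHSM-v cells had 20 higher (28.0%) and 7 lower (30.6%), with 39 tested and 58.6% of all genes called. For 4i/L/b cells the counts were 23 higher (26.6%) and 10 lower (29.0%), with 40 tested and 55.6% of all genes called. TL2i cells had 23 higher (25.6%) and 11 lower (25.2%), with 41 tested and 50.7% of all genes called. In t2iLGöY cells 21 were higher (27.1%) and 11 lower (27.2%), with 43 tested and 54.3% of all genes called. LCDM (EPS) cells had 16 higher (28.2%) and 12 lower (28.9%), with 40 tested and 57.1% of all genes called, and TL-CDK8i cells 19 higher (22.3%) and 7 lower (23.8%), with 39 tested and 46.1% of all genes called. Among the members tested, the median log2 fold change was -0.53 in E-NHSM and 0.94 to 2.04 in the other 6 protocols, beside medians of -0.02 to 0.07 over all genes tested. Between 1 and 6 of the members tested in a comparison were above 3 counts in only one of its groups and entered the test through that group. WNT1, at 0 to 13 counts in primed libraries, was not tested in E-NHSM cells. Members low in primed cells can thus pass the count filter through the protocol alone, and their number was not counted. The medians and shares over tested members are therefore a description.

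WNT1 and WNT3A, ligands of the β-catenin branch, were near 0 in primed and E-NHSM cells and called higher with the other 6 protocols. WNT1 was read at 0 to 1.40 CPM in primed libraries (median 0) and at 0, 0.612 and 0 CPM in E-NHSM libraries. It stood at 19.8, 20.8 and 25.3 CPM in NHSM-v, 31.8, 37.3 and 42.5 CPM in 4i/L/b, and 83.8, 85.3 and 96.1 CPM in TL2i libraries. In t2iLGöY libraries it reached 677, 702 and 626 CPM. LCDM (EPS) libraries held 17.8, 23.3 and 18.3 CPM and TL-CDK8i libraries 20.8, 12.04 and 11.4 CPM. None of these 6 protocols overlapped with primed cells, t2iLGöY lay furthest above them, and E-NHSM cells were as low as primed ones. Over primed cells, the log2 fold change was 10.75 ± 0.39 (SE) in t2iLGöY (edgeR adjusted p = 1.4e-11) and 5.13 ± 0.98 in TL-CDK8i cells (edgeR adjusted p = 0.00064).

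WNT3A held at most 3 counts in any primed or E-NHSM library. Its mean was 7.90 ± 1.14 CPM (SD, n = 3) in NHSM-v, 33.6 ± 3.69 in 4i/L/b, 37.9 ± 3.34 in TL2i, 98.4 ± 10.1 in t2iLGöY, 21.7 ± 0.639 in LCDM (EPS) and 5.30 ± 1.90 in TL-CDK8i cells. All 6 passed the test, the largest edgeR adjusted p being 8.5e-05. WNT4, a ligand of gonad and kidney development, ran from 0 to 3.56 CPM in primed libraries (median 1.41). It rose to 75.9, 98.3 and 111 CPM in TL2i and to 339, 370.3 and 289 CPM in t2iLGöY libraries, where the log2 fold change was 7.77 ± 0.40 (edgeR adjusted p = 5.9e-10). WNT4 was also higher in 4i/L/b (62.0 ± 2.30 CPM), NHSM-v (12.03 ± 2.93), LCDM (EPS) (11.0 ± 2.48) and TL-CDK8i cells (14.8 ± 5.54), without overlap with primed libraries, while its 0 to 1.02 CPM in E-NHSM did not pass the test (edgeR adjusted p = 0.57).

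WNT3, which acts in gastrulation, followed another order among the protocols. It ranged from 0.760 to 3.46 CPM in primed libraries (median 2.10). LCDM (EPS) libraries had the highest values, 75.3, 73.7 and 59.2 CPM, followed by t2iLGöY at 31.7, 27.5 and 30.6 CPM and 4i/L/b at 19.02, 21.9 and 19.2 CPM. TL2i, NHSM-v and TL-CDK8i cells had means of 8.17, 9.21 and 6.402 CPM. Over primed cells, WNT3 had a log2 fold change of 5.08 ± 0.34 in LCDM (EPS) cells (edgeR adjusted p = 1.9e-08) and 1.56 ± 0.59 in TL-CDK8i cells (edgeR adjusted p = 0.041). The TL-CDK8i call was lost without any 1 of the 3 TL-CDK8i libraries (1.55 to 1.61) or without primed J2, K2 or K3 (1.38 to 1.56) or against the primed libraries of letter J alone (1.29), and the TL2i call was lost without TL2i replicate 2 (1.79).

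WNT9A, one of the genes that the study lists as raised from these same libraries, was highest in NHSM-v cells. It was at 0 to 0.941 CPM in primed libraries (median 0.401) and at 51.6, 71.6 and 61.3 CPM in NHSM-v libraries, a log2 fold change of 7.25 ± 0.47 (edgeR adjusted p = 4.7e-09). In t2iLGöY libraries it stood at 30.7, 41.5 and 24.6 CPM, and in 4i/L/b at 16.5, 23.9 and 21.8 CPM. TL2i, LCDM (EPS) and TL-CDK8i cells had means of 14.6, 11.2 and 8.05 CPM and were called too, whereas the 0.646 to 2.97 CPM of E-NHSM overlapped with primed cells. WNT10B was at 0 to 2.00 CPM in primed libraries and highest in t2iLGöY cells, at 54.0, 58.2 and 43.4 CPM. It was higher in TL2i (17.2 ± 2.12 CPM), TL-CDK8i (7.44 ± 1.51 CPM) and 4i/L/b cells (5.01 ± 1.68 CPM). The 4i/L/b call was lost without any 1 of its 3 libraries (2.99 to 3.46 on the log2 scale) or against the primed libraries of letter J alone (2.95), and the TL-CDK8i call without TL-CDK8i replicate 2 (3.62).

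A further 3 ligands reached 10 CPM in 1 or 2 protocols only. WNT2B, at 0 to 2.40 CPM in primed libraries, stood at 69.9, 90.5 and 66.3 CPM in t2iLGöY and at 16.9, 23.7 and 21.9 CPM in TL-CDK8i libraries, with log2 fold changes of 6.21 ± 0.56 and 4.25 ± 0.75 (edgeR adjusted p = 2.3e-07 and 0.00033). WNT2B was also called in TL2i cells at 7.79 ± 1.75 CPM, a call lost without TL2i replicate 2 or 3 (2.85 and 2.72 on the log2 scale). WNT7B had no read in any primed or E-NHSM library and 32.0, 31.6 and 24.1 CPM in LCDM (EPS) libraries, at least 96.5-fold higher than a floor of 3 counts per primed library. In TL2i and t2iLGöY cells, WNT7B had means of 4.60 ± 0.973 and 4.51 ± 1.94 CPM, at least 15.2-fold and 14.9-fold above the same floor. WNT8B was at 28.1, 29.1 and 20.01 CPM in t2iLGöY against 0 to 1.06 CPM in primed libraries, a log2 fold change of 6.01 ± 0.74 (edgeR adjusted p = 6.8e-06), and it was not read in NHSM-v. It was also called in LCDM (EPS) cells at 4.19 ± 1.12 CPM, which was lost without LCDM (EPS) replicate 1 or 2 (3.34 and 3.26).

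Only 2 ligands were higher in primed cells than in most protocols. WNT5A was at 61.3 to 98.7 CPM in primed libraries (median 82.2). In TL2i libraries it was at 10.9, 21.1 and 15.3 CPM, in t2iLGöY at 11.8, 7.54 and 19.2 CPM, and in LCDM (EPS) at 21.2, 23.8 and 22.6 CPM. E-NHSM (28.8, 23.4 and 26.0 CPM) and 4i/L/b libraries (38.2, 37.8 and 39.4 CPM) also lay below every primed library. NHSM-v, at 87.5, 80.6 and 80.2 CPM, and TL-CDK8i, at 104, 88.0 and 113 CPM, overlapped with primed cells. Its log2 fold change was -2.62 ± 0.26 in t2iLGöY cells (edgeR adjusted p = 6.7e-07), 0.01 ± 0.14 in NHSM-v and 0.28 ± 0.14 in TL-CDK8i cells (edgeR adjusted p = 0.94 and 0.11). WNT8A, a ligand of early embryos, was at 8.22 to 25.4 CPM in primed libraries (median 9.68) and lower with all 7 protocols. NHSM-v libraries had no WNT8A read, at least 40.3-fold lower. Means were 0.210 to 1.10 CPM in t2iLGöY, LCDM (EPS), 4i/L/b and TL2i, 2.70 ± 1.75 CPM in E-NHSM and 5.92 ± 1.27 CPM in TL-CDK8i cells. The TL-CDK8i call for WNT8A (edgeR adjusted p = 0.037) was lost without any 1 TL-CDK8i library (-1.25 to -0.97 on the log2 scale), against the primed libraries of letter K alone (-0.74) and in the fit of all 8 groups (-1.04).

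The other 8 ligands stayed under 10 CPM in every group. WNT2, WNT6, WNT9B, WNT10A, WNT11 and WNT16 had no read in primed libraries. WNT6 was highest in TL2i (4.46 ± 1.98 CPM, at least 14.7-fold higher), WNT9B in t2iLGöY (5.32 ± 1.28 CPM, at least 17.6-fold higher) and WNT11 in NHSM-v cells (6.51 ± 1.37 CPM, at least 21.5-fold higher). WNT9B was also called in LCDM (EPS), 4i/L/b and NHSM-v, at means of 1.75 to 4.32 CPM, and WNT11 in 4i/L/b at 2.58 ± 1.32 CPM. WNT2 and WNT10A were called only in t2iLGöY, at 2.48 ± 1.26 and 2.21 ± 0.880 CPM, and WNT16 in 4i/L/b and TL2i, at 2.17 ± 0.560 and 2.16 ± 1.68 CPM. WNT5B was called in NHSM-v at 9.76 ± 1.21 CPM (edgeR adjusted p = 0.044), and WNT7A in no protocol, its highest mean being 4.01 ± 1.08 CPM in TL-CDK8i cells (edgeR adjusted p = 0.053).

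Ligand secretion split between its genes. WLS, the carrier of Wnt proteins, was among the genes the study lists as raised. It stood at 11.4 to 34.96 CPM in primed libraries (median 19.9) and at 7.30, 9.23 and 10.9 CPM in E-NHSM libraries, below all primed ones. NHSM-v libraries had 1198, 1109 and 1059 CPM and t2iLGöY libraries 1260.2, 1348 and 1141 CPM. In 4i/L/b (619.6, 742 and 709.8 CPM), TL2i (418, 432 and 436 CPM), TL-CDK8i (401, 559 and 429 CPM) and LCDM (EPS) libraries (300.2, 315 and 283 CPM), WLS lay far above the highest primed library. The log2 fold change was 5.79 ± 0.25 in t2iLGöY (edgeR adjusted p = 8.5e-11) and -1.34 ± 0.33 in E-NHSM cells (edgeR adjusted p = 0.0049). PORCN, the enzyme that adds the lipid, had means between 6.497 CPM in primed and 17.3 CPM in TL2i cells, and TL2i was the only protocol called (log2 fold change 1.42 ± 0.36, edgeR adjusted p = 0.0048).

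R-spondins were higher with most protocols. RSPO3, also on the study's list, was at 0.112 to 2.48 CPM in primed libraries (median 0.601) and at 1.41, 0.834 and 1.02 CPM in E-NHSM. It was at 225, 247 and 236 CPM in t2iLGöY, 127, 106 and 130.4 CPM in 4i/L/b, and 80.6, 77.8 and 85.3 CPM in TL2i libraries. NHSM-v (38.7 ± 3.13 CPM), LCDM (EPS) (36.5 ± 5.66 CPM) and TL-CDK8i cells (11.7 ± 5.90 CPM) followed, and all 6 were free of overlap with primed cells. RSPO3 had a log2 fold change of 7.94 ± 0.35 in t2iLGöY (edgeR adjusted p = 9.8e-11) and of 3.62 ± 0.72 in TL-CDK8i cells (edgeR adjusted p = 0.00091).

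RSPO1 ranged from 0 to 4.11 CPM in primed libraries (median 2.25) and had no read in E-NHSM, at least 12.8-fold lower in a comparison whose libraries overlap at 0. It stood at 419.5, 492 and 364 CPM in t2iLGöY, with a log2 fold change of 7.65 ± 0.39 (edgeR adjusted p = 5.1e-10). In LCDM (EPS) libraries it was at 51.2, 43.6 and 54.2 CPM, in 4i/L/b at 28.1, 21.4 and 23.4 CPM and in NHSM-v at 18.2, 14.4 and 17.4 CPM. TL2i, at 4.85, 8.50 and 4.88 CPM, and TL-CDK8i, at 2.87, 1.45 and 2.61 CPM, did not pass the test (edgeR adjusted p = 0.15 and 0.92). RSPO2 had no read in primed libraries and 37.8, 35.8 and 43.6 CPM in t2iLGöY libraries, at least 129-fold higher. Its means were 2.44 to 5.47 CPM in the 4 other protocols in which it was called, namely LCDM (EPS), TL2i, 4i/L/b and NHSM-v. RSPO4 was tested in no comparison and reached a mean of 0.765 CPM in TL-CDK8i cells at most. Among the protocols, t2iLGöY libraries also held the highest and E-NHSM libraries the lowest sums of roof plate and neural crest markers, and the part of such cells in the R-spondin levels was not tested.

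**Figure D2:**
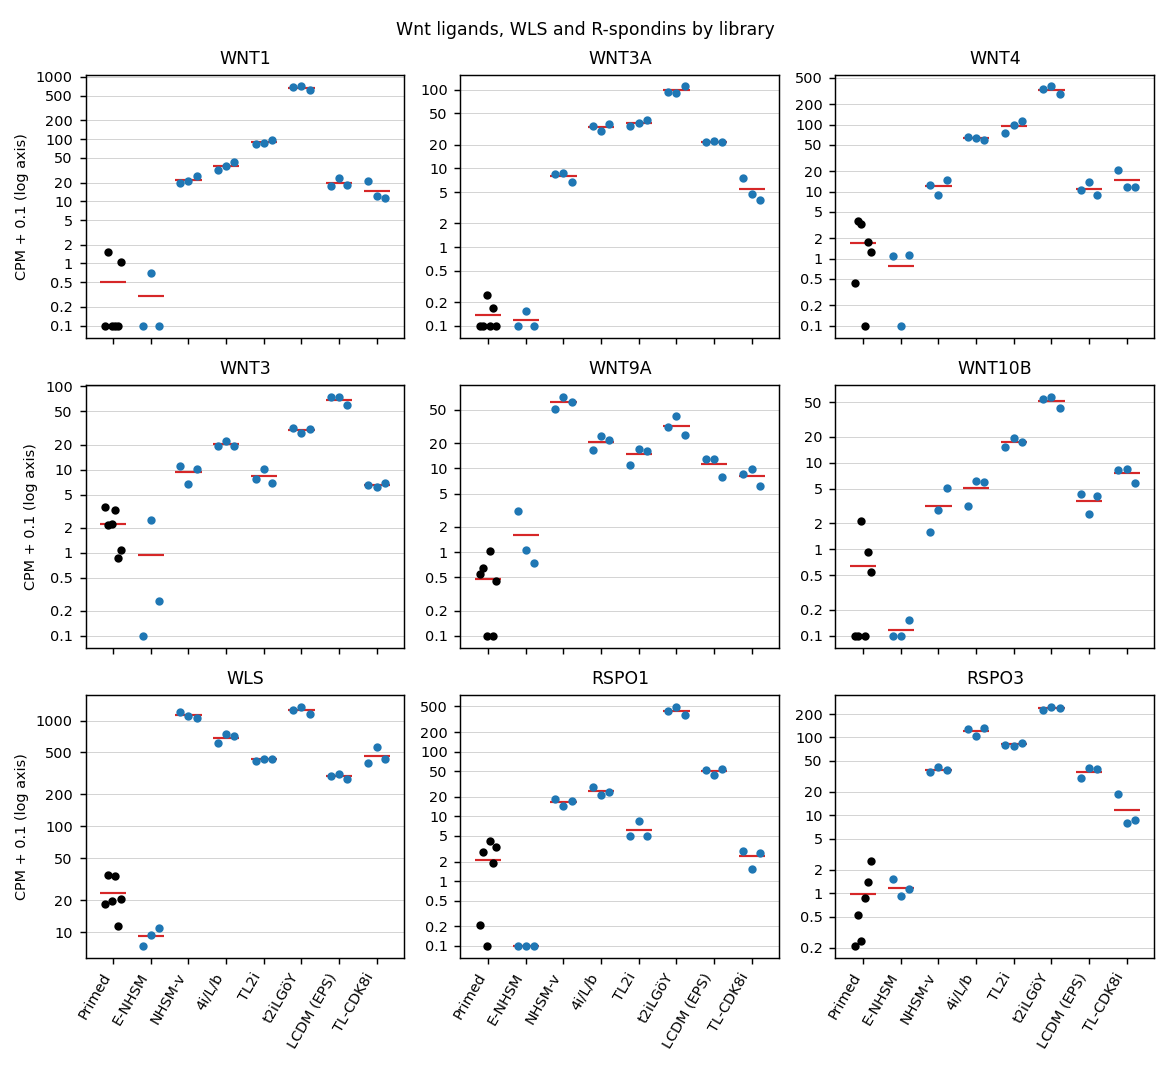
CPM + 0.1 on a log axis in each library for 6 ligands, WLS and 2 R-spondins. Black points are primed libraries, blue points the 7 protocols, and red lines group means. WNT1, WNT4, WNT10B, RSPO1 and RSPO3 have their highest means in t2iLGöY cells, WNT3 in LCDM (EPS) and WNT9A in NHSM-v cells.

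Frizzled receptors moved in both directions. FZD7, FZD5, FZD8, FZD4 and FZD6 were lower in 4 or more protocols, FZD10, FZD3, FZD2 and FZD1 were higher in 4 or more, and FZD9, with group means of 0.855 to 2.00 CPM, passed in none. FZD7 was at 391 to 672 CPM in primed libraries (median 495). It was lower with every protocol, from 295, 299 and 324 CPM in TL-CDK8i to 23.7, 28.0 and 30.2 CPM in t2iLGöY libraries, with no overlap. Its log2 fold change ran from -4.21 ± 0.19 in t2iLGöY (edgeR adjusted p = 1.4e-10) to -0.80 ± 0.15 in TL-CDK8i cells (edgeR adjusted p = 0.00053).

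FZD5 separated primed and E-NHSM cells from the rest. It was at 235 to 404 CPM in primed libraries (median 304) and at 266, 289 and 275 CPM in E-NHSM. NHSM-v libraries had 7.10, 2.06 and 3.87 CPM and t2iLGöY libraries 1.02, 4.67 and 5.56 CPM, with 4i/L/b (16.1 ± 0.780 CPM), TL2i (21.7 ± 5.26 CPM), LCDM (EPS) (35.4 ± 7.43 CPM) and TL-CDK8i cells (36.2 ± 11.1 CPM) between. The log2 fold change of FZD5 was -6.34 ± 0.38 in t2iLGöY cells (edgeR adjusted p = 3e-09), and the E-NHSM difference of -0.16 ± 0.15 did not pass (edgeR adjusted p = 0.46). FZD8 was called lower in TL2i, 4i/L/b, LCDM (EPS) and t2iLGöY cells, where its means were 10.7, 4.20, 3.26 and 3.09 CPM against 27.6 ± 7.78 CPM in primed cells. In E-NHSM, FZD8 overlapped with primed libraries at 15.4 ± 3.19 CPM, and its call (edgeR adjusted p = 0.027) was lost without any 1 E-NHSM library or without primed K1 or K3 (-0.95 to -0.68), and against the primed libraries of letter J alone (-0.60).

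FZD10 and FZD3 went the other way. FZD10 was at 7.05 to 9.60 CPM in primed (median 8.16) and at 7.91, 7.84 and 7.75 CPM in E-NHSM libraries. The highest level was in LCDM (EPS) at 266, 270.3 and 275 CPM, then t2iLGöY at 155, 195 and 152 CPM and TL2i at 98.9, 93.3 and 96.1 CPM. 4i/L/b (64.1 ± 3.09 CPM), NHSM-v (40.8 ± 5.22 CPM) and TL-CDK8i cells (26.3 ± 5.19 CPM) were above all primed libraries too. The log2 fold change of FZD10 in LCDM (EPS) was 5.05 ± 0.11 (edgeR adjusted p = 4.5e-13). FZD3, a receptor of axon growth, had the same protocol at the top, with 369.9, 354 and 403 CPM against 42.4 to 62.5 CPM in primed libraries (median 60.4). It was called in the same 6 protocols as FZD10, with log2 fold changes from 0.53 ± 0.13 in TL-CDK8i to 2.73 ± 0.11 in LCDM (EPS) cells.

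FZD2 was at 12.8 to 28.0 CPM in primed libraries, lower in E-NHSM (1.84, 5.39 and 4.47 CPM) and higher in the other 6 protocols, with means from 34.4 CPM in t2iLGöY to 90.6 CPM in TL-CDK8i cells. FZD1 followed in NHSM-v (45.3 ± 4.86 CPM), 4i/L/b (24.8 ± 2.75 CPM), TL2i (21.6 ± 3.78 CPM) and t2iLGöY cells (55.0 ± 1.84 CPM) against 13.7 ± 1.75 CPM in primed cells. Its TL2i call was lost without TL2i replicate 2 (0.51 on the log2 scale) or against the primed libraries of letter J alone (0.57), and its lower call in E-NHSM (6.75 ± 0.863 CPM) without E-NHSM replicate 1 (-0.93). FZD4, a receptor of vessel growth, had its highest level in E-NHSM cells. It was at 157, 173 and 165 CPM there against 21.6 to 50.9 CPM in primed libraries, a log2 fold change of 2.28 ± 0.18 (edgeR adjusted p = 3.9e-08). FZD4 was lower in t2iLGöY (12.7 ± 2.46 CPM), LCDM (EPS) (9.38 ± 0.961 CPM) and TL-CDK8i cells (11.7 ± 3.00 CPM). Its lower call in 4i/L/b, where libraries overlapped at 22.1 ± 2.93 CPM, was lost without any 1 of the 4i/L/b libraries or of primed K1, K2 and K3 (-0.74 to -0.46) and with DESeq2 (-0.57), no filter on low counts (-0.60) or the primed libraries of letter J alone (-0.24). FZD6 was also higher in E-NHSM, at 56.3 ± 7.23 CPM against 33.6 ± 6.49 CPM, and lowest in LCDM (EPS) cells at 7.40 ± 1.43 CPM. The lower calls of FZD6 in TL2i and t2iLGöY were lost without TL2i replicate 3 (-0.56) and without t2iLGöY replicate 1 or 2 (-0.62 and -0.52), and both were lost against the primed libraries of letter J alone (-0.45 and -0.42).

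The co-receptors moved little. LRP6 had group means of 88.2 to 143 CPM and was called in TL-CDK8i (log2 fold change 0.65 ± 0.16, edgeR adjusted p = 0.004) and in TL2i cells, where the call (edgeR adjusted p = 0.042) was lost without any 1 TL2i library or any 1 primed library of letter J (0.35 to 0.46), and against the primed libraries of letter K alone (0.16). LRP5 was higher in NHSM-v, at 95.0, 78.0 and 95.4 CPM against 35.3 to 59.9 CPM in primed libraries (log2 fold change 0.93 ± 0.17, edgeR adjusted p = 0.00019). Its calls in 4i/L/b (65.2 ± 1.95 CPM, higher) and TL2i (32.5 ± 2.28 CPM, lower) were lost without 4i/L/b replicate 2 or 3 (0.43 and 0.47) and without any 1 TL2i library (-0.55 to -0.46). The former was also lost against the primed libraries of letter J alone (0.29) and the latter against those of letter K alone (-0.30). The remaining protocols differed from primed cells by -0.39 ± 0.18 to 0.35 ± 0.16 in LRP5, with no call.

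ROR1 was lower with all 7 protocols. Primed libraries held 139 to 216 CPM (median 178), E-NHSM 44.7, 40.9 and 64.6 CPM, and LCDM (EPS), the lowest, 20.8, 14.9 and 23.5 CPM. TL2i libraries, with 105, 87.5 and 89.1 CPM, lay nearest to primed ones. None overlapped with primed cells, and the log2 fold change ran from -3.18 ± 0.18 in LCDM (EPS) to -0.94 ± 0.14 in TL2i cells (edgeR adjusted p = 3.6e-09 and 6.1e-05). ROR2, the other receptor of that pair, was higher in TL2i (55.3 ± 2.32 CPM) and TL-CDK8i (43.4 ± 4.87 CPM) than in primed cells (24.5 ± 1.62 CPM), lower in LCDM (EPS) (8.90 ± 1.33 CPM), and its higher call in 4i/L/b (35.5 ± 2.09 CPM) was lost without 4i/L/b replicate 2 (0.45). RYK stayed within group means of 87.9 to 168 CPM. It was higher in NHSM-v and TL-CDK8i (log2 fold change 0.52 ± 0.11 and 0.41 ± 0.11), and its lower calls in E-NHSM and TL2i were lost without E-NHSM replicate 1 or 2 (-0.36 and -0.38) and without TL2i replicate 3 (-0.37).

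Soluble binders were led by losses of SFRP1 and SFRP2. SFRP1 was at 285 to 415 CPM in primed libraries (median 332). E-NHSM (133, 125 and 114 CPM) and TL-CDK8i libraries (129.8, 122 and 132 CPM) held intermediate levels, and the remaining 5 protocols were far lower, with 1.80, 0.926 and 2.02 CPM in NHSM-v and means of 9.13 to 14.9 CPM in the other 4. All 7 were called without overlap, with log2 fold changes of -7.74 ± 0.23 in NHSM-v (edgeR adjusted p = 1.2e-12) and -1.45 ± 0.13 in TL-CDK8i cells (edgeR adjusted p = 5e-07). SFRP2 was at 147 to 208 CPM in primed libraries (median 162), lower in 6 protocols with means from 3.82 ± 1.81 CPM in NHSM-v to 68.3 ± 8.07 CPM in LCDM (EPS), and at 175, 183 and 171 CPM in TL-CDK8i libraries. That last difference was -0.01 ± 0.12 on the log2 scale (edgeR adjusted p = 0.98).

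FRZB had its highest level in TL2i cells. Primed libraries held 0 to 5.86 CPM (median 2.41) and TL2i libraries 96.4, 152 and 106 CPM, a log2 fold change of 5.51 ± 0.49 (edgeR adjusted p = 6e-07). It was also higher in 4i/L/b at 13.1, 16.8 and 16.6 CPM (edgeR adjusted p = 0.0092), and no other protocol passed. TL-CDK8i libraries disagreed, with 17.5, 1.45 and 1.06 CPM. WIF1 had its highest level in TL-CDK8i cells, at 85.9, 63.9 and 86.8 CPM against 3.94 to 9.14 CPM in primed libraries (median 8.35), a log2 fold change of 3.37 ± 0.23 (edgeR adjusted p = 3.9e-08). WIF1 was lower in NHSM-v (1.82 ± 0.515 CPM), 4i/L/b (1.80 ± 0.866 CPM), t2iLGöY (0.917 ± 1.01 CPM) and LCDM (EPS) cells, whose libraries held 3 counts or fewer. SFRP4 was at 0 to 2.00 CPM in primed libraries and called in TL-CDK8i (26.6, 28.4 and 20.01 CPM) and E-NHSM (10.7, 13.2 and 9.20 CPM). A call of SFRP4 in 4i/L/b at 5.41 ± 0.876 CPM was lost without any 1 4i/L/b library (3.33 to 3.52). SFRP5 was called in TL-CDK8i cells at 7.34 ± 3.74 CPM and in TL2i cells at 1.08 ± 0.164 CPM, against 0.0806 ± 0.198 CPM in primed cells.

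DKK3, a DKK member not known as a typical LRP inhibitor, was at 1.37 to 6.70 CPM in primed libraries (median 5.82) and higher with every protocol but E-NHSM. It was at 65.8, 77.6 and 77.4 CPM in LCDM (EPS) and 52.8, 62.2 and 64.2 CPM in TL-CDK8i libraries, with log2 fold changes of 3.88 ± 0.31 and 3.52 ± 0.32 (edgeR adjusted p = 1.3e-07 and 7e-07). DKK2 was called in 4i/L/b and NHSM-v cells, at 2.23 ± 0.236 and 3.20 ± 1.13 CPM against 0.236 ± 0.434 CPM in primed cells. DKK4 was tested in no comparison and reached 1.37 CPM in TL-CDK8i cells at most.

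**Figure D3:**
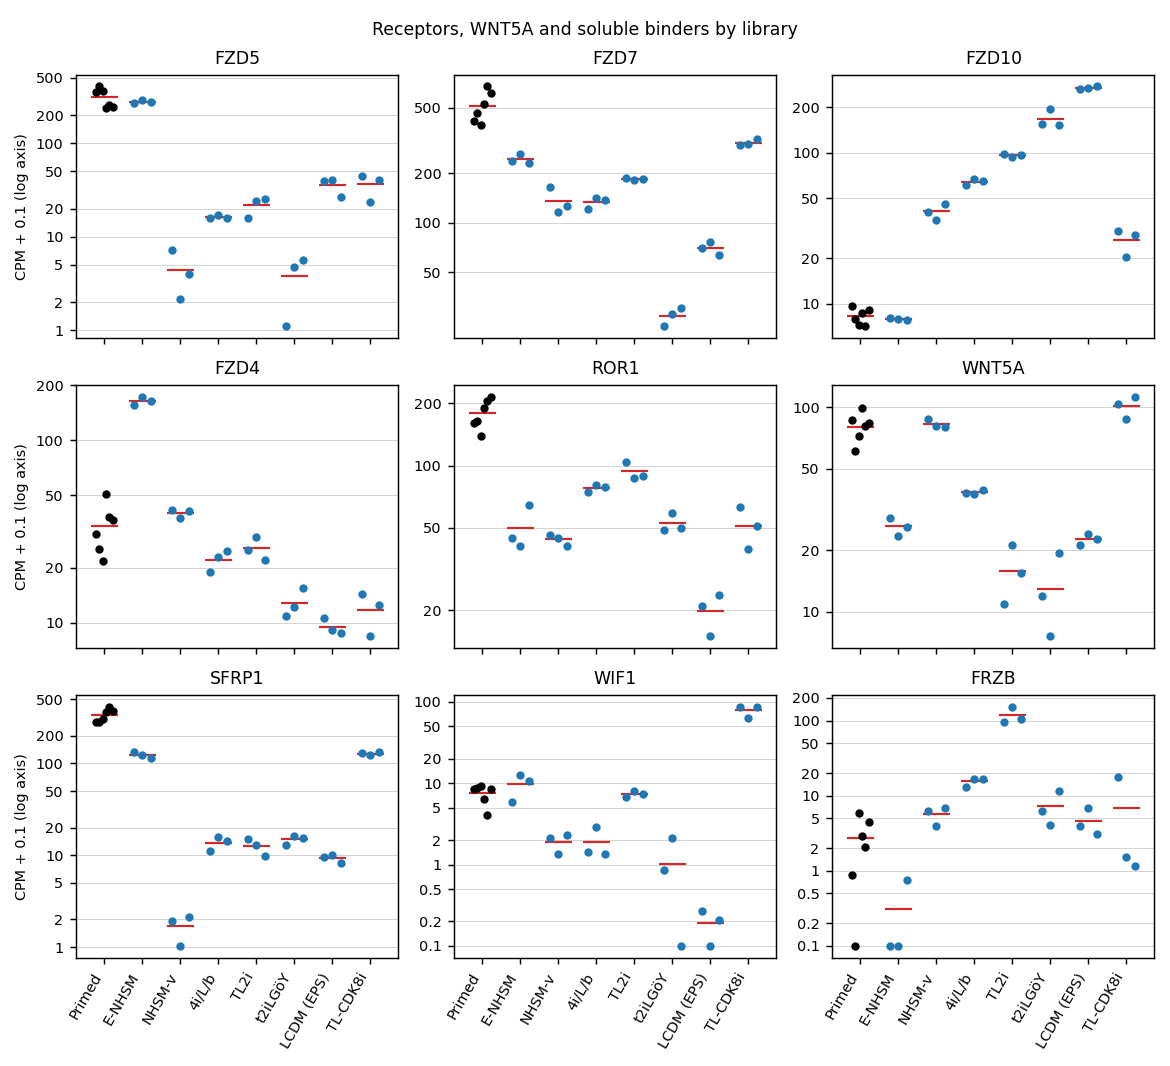
CPM + 0.1 on a log axis in each library for receptors, WNT5A and soluble binders. Black points are primed libraries, blue points the 7 protocols, and red lines group means. FZD5 is high in primed and E-NHSM cells, SFRP1 is highest in primed cells and intermediate in E-NHSM and TL-CDK8i cells, FZD10 is highest in LCDM (EPS), FZD4 in E-NHSM, WIF1 in TL-CDK8i and FRZB in TL2i cells.

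**Figure D4:**
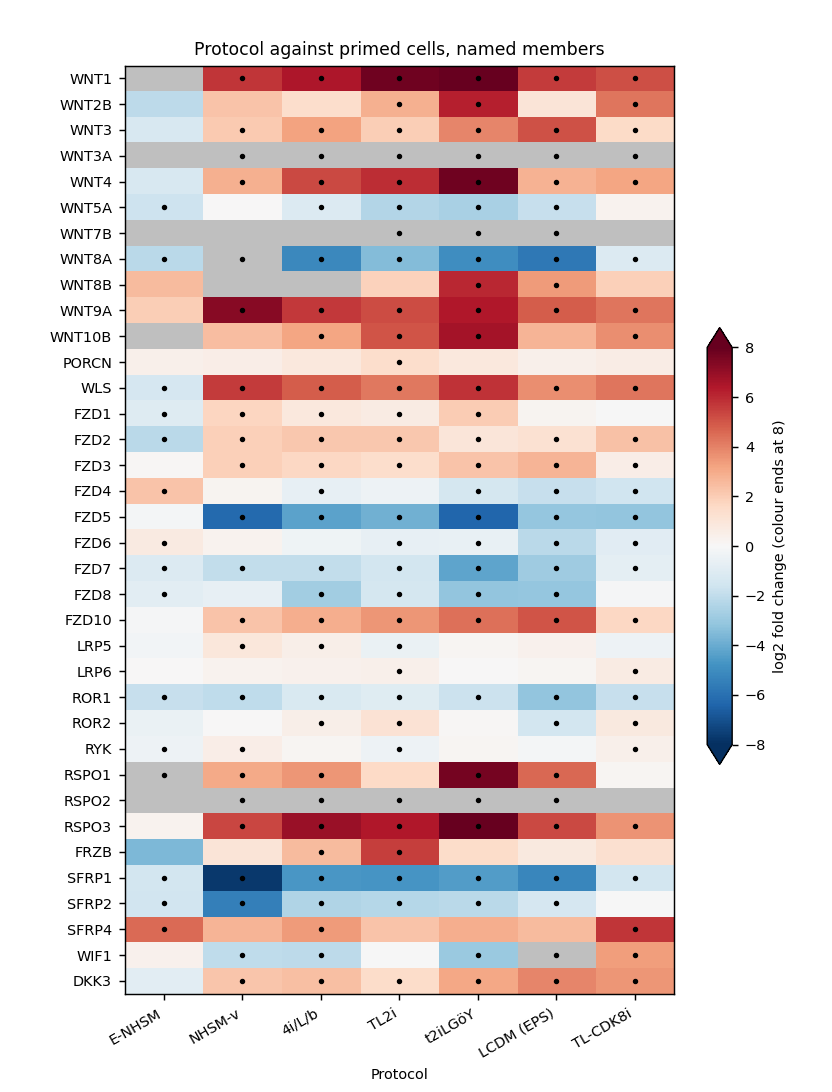
Log2 fold change of each protocol over primed cells (columns) for the 36 members with a group mean of at least 10 CPM (rows, by role). Dots mark an edgeR adjusted p under 0.05, and grey marks pairs not tested or with a group whose libraries hold 3 counts or fewer. Red is frequent among ligands, WLS and R-spondins outside E-NHSM, and blue marks FZD5, FZD7, ROR1, SFRP1 and SFRP2.

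TL-CDK8i and TL2i cells share tamoxifen and LIF and differ in their inhibitors, and their comparison uses no primed library. Of the 49 members, 17 were higher and 18 lower in TL-CDK8i cells, with 45 tested and 64.9% of all genes tested called (31.5% higher and 33.3% lower). Of the 17 ligands tested, 6 were higher in TL-CDK8i (WNT2B, WNT5A, WNT5B, WNT7A, WNT8A and WNT9B) and 7 lower (WNT1, WNT3A, WNT4, WNT6, WNT7B, WNT9A and WNT10B). Of 10 Frizzled receptors, 3 were higher and 4 lower, and all 3 R-spondins tested were lower. WNT7A had a mean of 4.01 CPM in TL-CDK8i and 0.0521 CPM in TL2i cells, and the log2 fold change was 1.86 for WNT5B, 1.78 for WNT9B and 1.40 for WNT2B. The log2 fold change was -2.88 ± 0.21 for WNT3A, -2.84 ± 0.23 for RSPO3, -2.72 ± 0.21 for WNT4 and -2.62 ± 0.18 for WNT1, the largest edgeR adjusted p of these being 1.6e-07. TL-CDK8i replicate 1 was the highest of its group for these 4 genes, at 7.46 CPM of WNT3A, 18.5 of RSPO3, 21.2 of WNT4 and 20.8 of WNT1, and also for LMX1A, at 6.08 CPM against 0.193 and 0.223. The libraries of the 2 groups did not overlap for any of the 4 genes.

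Of the 6 soluble binders, 5 were higher in TL-CDK8i cells and FRZB was lower. The log2 fold change was 3.40 ± 0.15 for WIF1 (edgeR adjusted p = 4.7e-10), 3.36 ± 0.21 for SFRP4, 3.31 ± 0.14 for SFRP1, 2.70 ± 0.42 for SFRP5 and 2.28 ± 0.09 for SFRP2, against -4.22 ± 0.55 for FRZB (edgeR adjusted p = 1.5e-05). WNT5A and WNT8A, both lower in TL2i than in primed cells, were higher in TL-CDK8i by 2.66 ± 0.19 and 2.40 ± 0.35, and DKK3 by 2.05 ± 0.13. Receptors differed less, from -1.90 ± 0.13 for FZD10 and -1.16 ± 0.19 for FZD4 to 1.31 ± 0.16 for FZD8. WLS differed by 0.08 ± 0.11 and FZD2 by 0.19 ± 0.13 with no call (edgeR adjusted p = 0.57 and 0.22). LRP6 was called by a small margin (0.24 ± 0.09, edgeR adjusted p = 0.024), lost without TL2i replicate 1 or 3 or TL-CDK8i replicate 2 (0.23 to 0.25) and with upper-quartile factors (0.19), and WNT7B (-1.39 ± 0.45, edgeR adjusted p = 0.015) was lost without TL2i replicate 3 or TL-CDK8i replicate 2 or 3 (-1.19 to -1.06). The summed roof plate and neural crest markers were lower in TL-CDK8i than in TL2i libraries, as all 6 of these genes were, and 7 of the 8 pluripotency genes were higher. The part of these cell types in the Wnt differences was not tested.

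**Figure D5:**
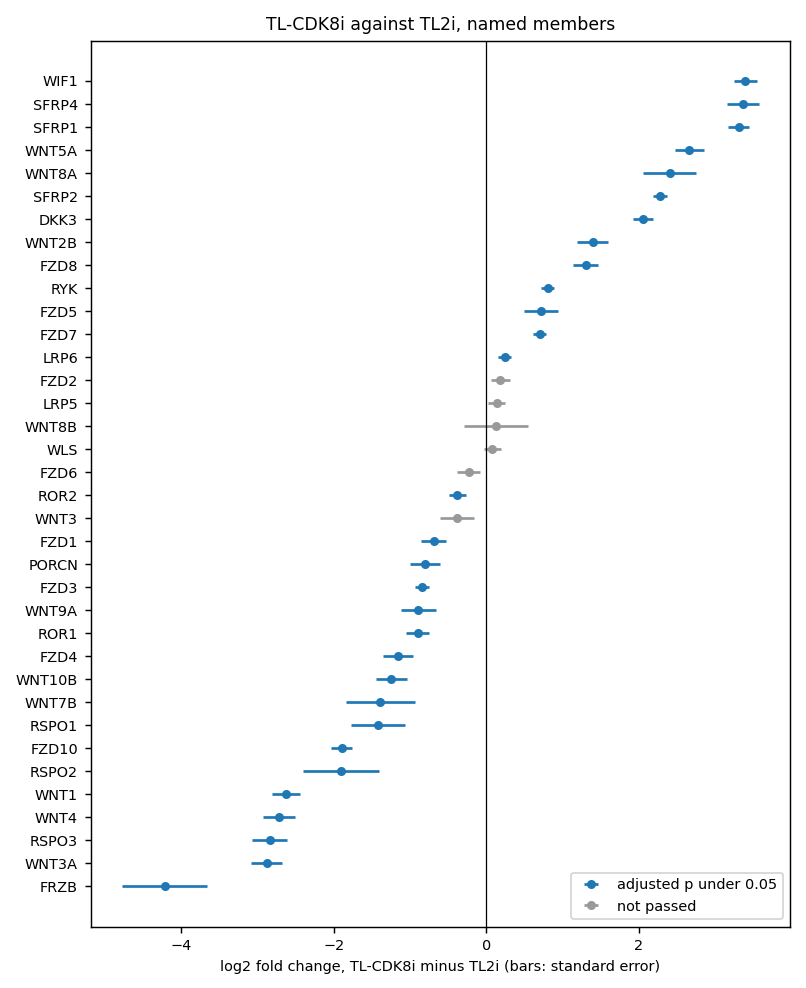
Log2 fold change of TL-CDK8i over TL2i cells for the named members, with standard errors as bars. Blue points passed an edgeR adjusted p of 0.05. WIF1, SFRP4 and SFRP1 lie highest, and FRZB, WNT3A and RSPO3 lowest.

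The protocols were also set against each other, each one against the mean of the other 6, in a fit of all 8 groups. Of the 49 members, 47 were tested, and E-NHSM had 10 higher (32.3% of all genes) and 26 lower (30.7%), 63.0% of all genes being called. NHSM-v had 16 higher (25.1%) and 7 lower (23.9%) with 49.0% called, and 4i/L/b 14 higher (18.2%) and 2 lower (13.2%) with 31.4% called. TL2i had 16 higher (20.4%) and 6 lower (14.2%) with 34.7% called, and t2iLGöY 20 higher (22.4%) and 9 lower (21.2%) with 43.6% called. LCDM (EPS) had 14 higher (26.4%) and 13 lower (21.4%) with 47.8% called, and TL-CDK8i 20 higher (31.5%) and 10 lower (22.9%) with 54.3% called. The 4i/L/b count of 14 was 9 without 4i/L/b replicate 2 or 3 and its count of 2 was 1 without replicate 1, and the TL-CDK8i count of 10 was 6 without TL-CDK8i replicate 3. Shares of all genes with a library left out are not given here. Where a protocol holds no read for a gene, this contrast depends on how 0 is treated, so single genes were compared by pairs of protocols, a step chosen after the data were seen, in 21 contrasts of the same fit. The share of all genes called was 63.1% for E-NHSM against NHSM-v, 58.5% against 4i/L/b, 53.5% against TL2i, 60.9% against t2iLGöY, 59.6% against LCDM (EPS) and 50.1% against TL-CDK8i. For NHSM-v it was 30.7% against 4i/L/b, 43.5% against TL2i, 41.4% against t2iLGöY, 47.8% against LCDM (EPS) and 52.6% against TL-CDK8i. For 4i/L/b it was 19.9% against TL2i, 35.2% against t2iLGöY, 40.9% against LCDM (EPS) and 44.9% against TL-CDK8i. The remaining shares were 41.9%, 42.4% and 45.0% for TL2i against t2iLGöY, LCDM (EPS) and TL-CDK8i, 27.5% and 56.0% for t2iLGöY against LCDM (EPS) and TL-CDK8i, and 56.5% for the last pair. The p-values of each contrast were adjusted over genes and not over contrasts.

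By these pairs, WNT1, WNT2B, WNT3A, WNT4, WNT8B, WNT10B, RSPO1, RSPO2 and RSPO3 were higher in t2iLGöY than in each of the other 6 protocols, with a largest edgeR adjusted p of the 6 contrasts from 6.2e-10 for WNT1 to 0.017 for WNT10B. FZD3, FZD10 and WNT7B were highest in LCDM (EPS) in the same sense (0.0011, 5.4e-05 and 0.0026), FZD4, FZD5 and FZD6 in E-NHSM (1.7e-09, 6.7e-10 and 0.031), SFRP2 and WIF1 in TL-CDK8i (4.2e-09 and 2.7e-06), FRZB in TL2i (0.0024) and LRP5 in NHSM-v (0.018). Other leading protocols could not be separated from their neighbours. WLS in t2iLGöY and WNT9A in NHSM-v exceeded 5 protocols but not NHSM-v and t2iLGöY, respectively, and WNT3 in LCDM (EPS) was not separated from t2iLGöY. For WNT5A, TL-CDK8i led without separation from NHSM-v, and for SFRP1 without separation from E-NHSM. For DKK3, LCDM (EPS) led without separation from TL-CDK8i. For PORCN, TL2i exceeded 2 protocols only.

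Position in the genome was not used to choose the members. In the rhesus RefSeq assembly T2T-MMU8v2.0, all 49 symbols were found, and 4 pairs of ligands lay side by side with 0 protein-coding genes between them: WNT1 with WNT10B, WNT3 with WNT9B, WNT3A with WNT9A, and WNT6 with WNT10A. WNT1 and WNT10B both had their highest means in t2iLGöY and next in TL2i cells. WNT3A had its highest mean in t2iLGöY at 98.4 CPM. WNT9A had its highest in NHSM-v at 61.5 CPM, where WNT3A had 7.90 CPM, but NHSM-v was not separated from t2iLGöY for WNT9A. The highest mean of WNT3 was 69.4 CPM in LCDM (EPS) and that of WNT9B 5.32 CPM in t2iLGöY. WNT3 was not separated between these protocols and WNT9B libraries overlapped between them, so no different order is shown. WNT6 and WNT10A had highest means of 4.46 CPM in TL2i and 2.21 CPM in t2iLGöY.

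Other genes of the pathway, 42 in number, gave the members' setting. Of these, 3 were higher and 6 lower in E-NHSM, and 16 to 25 were higher and 3 to 10 lower in each of the other protocols. Of all genes tested, 11.1% were higher and 15.1% lower in E-NHSM. In the other protocols, 22.3% to 28.2% of all genes were higher and 23.8% to 30.6% lower. AXIN2, a feedback inhibitor that β-catenin induces, was at 7.04 CPM in primed cells and higher with all 7 protocols, from 22.8 CPM in E-NHSM and 60.4 CPM in TL-CDK8i to 385 CPM in TL2i cells. LEF1, a DNA-binding partner of β-catenin, was at 0.148 CPM in primed and 0.0185 CPM in E-NHSM cells and at 19.2 to 152 CPM in the other 6. RNF43 and ZNRF3, the ligases that remove Frizzled receptors, were each higher in 5 protocols, with their highest means in NHSM-v at 74.9 and 147 CPM. LGR5, an R-spondin receptor, was called higher in 3 protocols and was highest in 4i/L/b at 25.6 CPM. LGR4, another R-spondin receptor, held 210 to 411 CPM in primed libraries and was called lower in 4 protocols and higher in 0. KREMEN1, DVL2, APC2, GSK3B, PYGO1 and NKD1 were higher in 6 protocols, SOST, DVL3, VANGL2, PRICKLE2, CELSR1 and CELSR2 in 5. Lower were MESDC2, the chaperone of LRP proteins, in all 7, TCF7L1 in 6 and TCF7L2 in 5 protocols.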

How the data were processed

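RNA-seq of 27 libraries was analysed. Libraries were directional mRNA preparations read as single reads, and the submitters' processing notes name bcl2fastq, cutadapt, HISAT2 and HTSeq without versions or roles. The genome build and annotation are not given in the sources used here. The authors deposited raw read counts by gene symbol, with each library in its own column, and every such column was used. Groups came from the sample labels. The primed columns carry the letters J and K, which the labels do not explain. The sample titles divide the primed libraries into separate sets, which could not be matched to the letters. Some members differed by letter. FZD5 stood at 351 to 404 CPM in J and 235 to 258 CPM in K libraries, and LRP6 at 63.4 to 80.6 and 99.2 to 115 CPM.

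Counts were tested in R 4.3.3 with edgeR 4.0.16 (TMM factors, filterByExpr, quasi-likelihood F test, Benjamini-Hochberg adjustment over all genes tested, threshold 0.05), each comparison on its own groups, and protocols against each other in a fit of all 8 groups. The procedure was tested on simulated data. Members with a mean of at least 10 CPM in any group were described with values, with those needed to complete a role. Other pathway genes were named where called in the same direction in at least 5 protocols, with LGR4, LGR5, RNF43, ZNRF3, AXIN2 and LEF1. A fold against a group with no read is a bound against 3 counts per library, a floor that covers counting error only. Members and lists were chosen with earlier results of these data known, and WNT9A, RSPO3 and WLS are on a list the study drew from these libraries. Alternatives were DESeq2 1.42.0, upper-quartile factors, no filter, 1 fit of all groups, a replicate block, primed columns of 1 letter, and each library left out.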

Additional observations from a re-analysis of the deposited data

Results flagged for a closer look

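Within the 6 primed libraries, 4 of 36 members had a highest or lowest library set apart from the others by more than Dixon's 95% critical value, where chance gives about 1 in 20. WNT8A stood at 25.4 CPM in primed J3, with the next library at 10.9 CPM. FZD2 stood at 28.0 CPM in primed J3, with the next at 17.6 CPM. SFRP4 stood at 2.00 CPM in primed J3, with the next at 0.691 CPM in primed K2. These were 14 and 10 counts, in libraries of 7111886 and 15183387 counts. FZD8 was low in primed J1 at 12.6 CPM, with the next library at 26.4 CPM. Over genes, log2 CPM of primed J3 correlated with the other primed libraries at 0.923 to 0.935, and those with each other at 0.954 to 0.976.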

How the results depend on the processing

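Counts of members called stayed within 1.5 times their value under DESeq2, upper-quartile factors, no filter on low counts and primed libraries of letter J or K alone. With all 8 groups in 1 fit, the members higher than in primed cells were 9 in place of 3 for E-NHSM and 30 in place of 19 for TL-CDK8i, and the cause was not tested. With 1 library left out at a time, counts against the mean of the other 6 protocols ranged from 9 to 16 (higher) and 1 to 3 (lower) for 4i/L/b and from 6 to 11 (lower) for TL-CDK8i. The shares of all genes called under these alternatives are not given here, so such counts describe the members only. Direction turned for 1 value: WNT1 in TL-CDK8i against the mean of the other 6 protocols ran from -1.04 without TL-CDK8i replicate 1 to 0.0150 on the log2 scale (edgeR adjusted p = 0.71) without E-NHSM replicate 2, the E-NHSM library that holds all WNT1 reads of that group. Between TL-CDK8i and TL2i, the calls of PORCN, ROR2, WNT2B, WNT9A, WNT10B, LRP6 and WNT7B were lost in the fit of all 8 groups (-0.77, -0.35, 1.42, -0.86, -1.21, 0.27 and -1.36). Deviations of same-numbered libraries correlated at -0.127 to 0.0174, so no pairing by replicate number was seen. For primed cells, the J and K columns of a number were averaged. A pairing with 1 letter only, or in another order, was not tested. A replicate block left all counts within 1.5 times and ended the calls of FZD4 in 4i/L/b (-0.63) and LRP6 in TL2i (0.43). Members under 10 CPM in every group were not followed singly through these alternatives. At 7111886 to 20760914 counts per library, values near 0.141 to 0.429 CPM rest on 3 counts.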
